A study of Mus musculus with 6 samples.

Results

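The genes described here encode solute carriers of 8 families that move amino acids, sugars, monocarboxylates and related solutes across membranes. They are the 88 genes, of 18193 with a probe set of their own on the Affymetrix Mouse Genome 430 2.0 array, whose symbol belongs to family SLC1, SLC2, SLC5, SLC6, SLC7, SLC16, SLC36 or SLC38. Each gene is read from the brightest of its probe sets. The rule is one of names, so it also takes in carriers of other solutes, such as the iodide carrier Slc5a5, the choline carrier Slc5a7 and the serotonin carrier Slc6a4.

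Tissue came from the bladder neck and the urethra of FVB/N wild-type embryos, taken on embryonic day 13 (Theiler stage 21). Trypsin and a needle parted it into the epithelial layer (arrays 1, 2 and 5) and the mesenchymal layer (arrays numbered 1, 2 and 3). Samples were not pooled and the sex of the embryos is unknown, per the labels, whose texts differ on where the bladder was cut relative to the ureters. All arrays share strain, stage, trypsin digestion and 2 rounds of RNA amplification. Nothing in the labels ties an array to a separate embryo. The p-values therefore measure only the spread between these samples, which may be technical. A layer holds several cell types, and in such bulk RNA fewer cells of a type and less RNA per cell cannot be told apart.

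Carriers of the SLC class set what a cell can take up and release. SLC2 proteins let sugars and polyols through along their gradient, whereas most SLC5 proteins couple sugars, inositol or other solutes to sodium. SLC1, SLC6 and SLC38 proteins use the sodium gradient to take in amino acids, neurotransmitters and related solutes, SLC7 proteins exchange amino acids or carry cationic ones, SLC36 proteins move small amino acids with protons at the cell surface and the lysosome, and several SLC16 proteins move lactate and other monocarboxylates. In growing embryonic tissue such carriers supply glucose and amino acids for biomass and release lactate.

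The array labelled mesenchyme 1 stood apart, so each result is given with and without it. Over genes (no replicates of one another), Pearson's r was 0.981 between mesenchyme 2 and 3, 0.922 to 0.958 within epithelium, and 0.784 and 0.755 for mesenchyme 1 with the other two. The 8 epithelial markers (Epcam, Cdh1, Krt8, Krt18, Krt19, Foxa1, Cldn6 and Grhl2) summed to between 161284 and 186015 normalized signal units on the epithelial arrays, 13031 and 2502 on mesenchyme 2 and 3, and 56905 on mesenchyme 1. The 8 mesenchymal markers (Col1a1, Col1a2, Col3a1, Pdgfra, Pdgfrb, Lum, Twist1 and Tcf21) summed to 21933 to 40381 on the epithelial arrays and 146907 to 196664 on the mesenchymal arrays. The layers thus carry the markers of their labels, with epithelial transcripts also present on mesenchyme 1, where Twist1 (467) and Tcf21 (261) read no higher than in epithelium. The deposited signals had medians between 126 and 254 per array, and precision is limited by how many arrays there are.

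Each difference is the epithelial minus the mesenchymal mean of log2(signal + 16) after quantile normalization, given ± its limma standard error (n = 3 arrays in each layer). Positive values are higher in epithelium. Levels are normalized signal in array units, and levels of different probe sets are not compared. Adjusted p is Benjamini-Hochberg over all genes tested in limma, with a threshold of 0.05. Without mesenchyme 1 the normalization, filter and fit were redone on 5 arrays.

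Of the 88 carriers, 63 lay above the filter on low signals with all 6 arrays and were tested. Of these, 6 passed: 2 were higher in epithelium (Slc2a1 and Slc36a1) and 4 in mesenchyme (Slc6a15, Slc7a14, Slc16a9 and Slc38a5). That is 9.52% of the carriers tested, beside 5.98% of all 13717 genes, of which 1.95% were higher in epithelium and 4.03% in mesenchyme. Without mesenchyme 1, 11 of 61 carriers passed (18%, beside 14.6% of 13576 genes), 6 higher in epithelium (beside 6.41%) and 5 in mesenchyme (beside 8.2%). The 11 include all 6 above, joined by Slc1a5, Slc5a9, Slc7a10 and Slc16a7, higher in epithelium, and Slc2a13, higher in mesenchyme. The epithelial means of Slc7a14, Slc16a9 and Slc38a5 lay below the filter cut (a signal of 96.3), so these genes passed it through mesenchyme. Only a call higher in mesenchyme was thus open to them. Slc5a9 passed the filter in the same way through epithelium, so only the opposite call was open to it. The median difference of the carriers was -0.24, against 0.12 over all genes, and 0.09 against 0.02 without mesenchyme 1. The arrays of the layers did not overlap for 21 of 63 carriers (28.8% of all genes), and for 33 of 61 without mesenchyme 1 (45.6% of all genes).

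**Figure D1:**
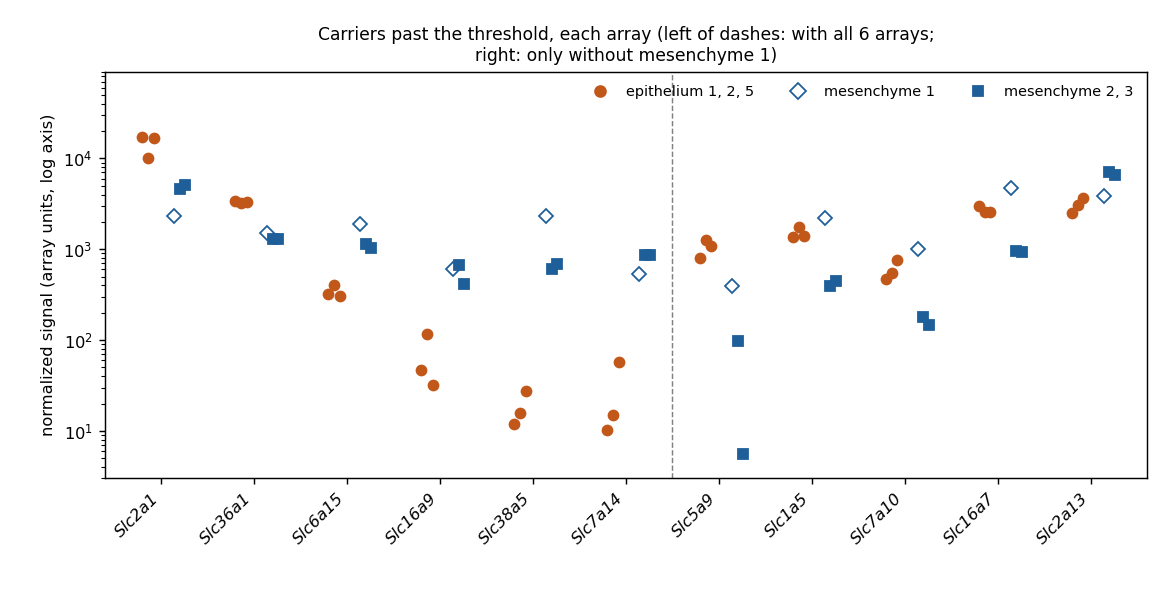
Normalized signal (array units, log axis) of the 11 carriers past the threshold on each array, with epithelium as circles, mesenchyme 1 as open diamonds and mesenchyme 2 and 3 as squares. Genes left of the dashed line passed with all 6 arrays; for the 5 genes right of it mesenchyme 1 lies nearer to the epithelial arrays than to mesenchyme 2 and 3.

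The promoter windows of the 2 carriers higher in epithelium with all arrays, Slc2a1 and Slc36a1, and of 2 higher in mesenchyme, Slc38a5 and Slc7a14, are shown, so that both directions can be compared; the 4 were chosen after their values were seen. The windows run from 250 bases before to 50 after the RefSeq start (GRCm38.p6), 5′ to 3′ on the gene's strand. Capitals mark ACGTG, the core of the hypoxia response element (part of the E-box CACGTG where both occur), and GGGCGG, the GC box, each on either strand.
Slc2a1, chr4:119108495-119108794, plus strand: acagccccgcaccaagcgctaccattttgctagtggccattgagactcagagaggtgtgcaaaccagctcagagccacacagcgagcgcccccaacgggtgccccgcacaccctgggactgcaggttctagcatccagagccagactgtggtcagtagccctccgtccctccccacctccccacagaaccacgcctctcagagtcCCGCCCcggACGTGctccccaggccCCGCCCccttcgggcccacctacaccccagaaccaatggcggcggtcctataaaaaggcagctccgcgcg
Slc36a1, chr11:55204090-55204389, plus strand: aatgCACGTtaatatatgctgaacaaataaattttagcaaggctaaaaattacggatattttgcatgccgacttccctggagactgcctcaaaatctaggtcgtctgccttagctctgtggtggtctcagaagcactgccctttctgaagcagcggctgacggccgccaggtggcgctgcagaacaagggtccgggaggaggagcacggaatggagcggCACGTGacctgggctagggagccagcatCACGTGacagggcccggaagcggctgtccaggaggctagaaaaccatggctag
Slc38a5, chrX:8271131-8271430, plus strand: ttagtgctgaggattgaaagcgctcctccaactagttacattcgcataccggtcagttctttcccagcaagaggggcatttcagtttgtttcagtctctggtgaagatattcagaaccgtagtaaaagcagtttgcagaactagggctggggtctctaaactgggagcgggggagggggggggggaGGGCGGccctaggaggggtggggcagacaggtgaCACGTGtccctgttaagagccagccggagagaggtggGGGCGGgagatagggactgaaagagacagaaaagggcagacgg
Slc7a14, chr3:31310270-31310569, minus strand: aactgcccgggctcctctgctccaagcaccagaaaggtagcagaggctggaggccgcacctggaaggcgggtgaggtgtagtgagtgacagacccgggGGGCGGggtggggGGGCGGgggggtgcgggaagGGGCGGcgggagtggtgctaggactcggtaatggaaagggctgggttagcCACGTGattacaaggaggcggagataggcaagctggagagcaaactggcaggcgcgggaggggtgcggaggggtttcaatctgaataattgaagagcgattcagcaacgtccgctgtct
RefSeq windows were matched for 63 of the 88 carriers (85 windows) and 7 of the 11 above. ACGTG stood in all 4 windows shown, in none of the windows of Slc2a13, Slc7a10 and Slc16a9, in 28.2% of carrier windows and in 19.6% of 32851 windows of all genes. GGGCGG stood in 3 of the 4 and not in that of Slc36a1, whose window holds CACGTG 2 times, and in 49.4% of carrier windows and 35.7% of all. TATAAA was found in the window of Slc2a1 alone among the 4, and in 8.24% of carrier windows and 13.6% of all. These are matches of letters, with no measurement of binding.

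Among the facilitative sugar carriers of SLC2, Slc2a1, the glucose carrier of red cells and of tight barriers, was higher in epithelium. It read 17389, 10229 and 16802 on epithelium 1, 2 and 5, and 2318, 4632 and 5076 on mesenchyme 1, 2 and 3. Every epithelial array lay above every mesenchymal one, with mesenchyme 1 lowest. The difference was 1.92 ± 0.377 (3.79-fold, adjusted p = 0.0296), or 1.57 ± 0.271 (adjusted p = 0.00918) without mesenchyme 1, and its other 2 probe sets differed by 2.14 and 2.15. Slc2a13, a proton-coupled carrier of myo-inositol, went the other way. It read 2527, 3085 and 3668 on the epithelial arrays against 3832, 7078 and 6642 on mesenchyme 1, 2 and 3, so that mesenchyme 1 lay just above the epithelial arrays. The difference was -0.88 ± 0.33 (adjusted p = 0.196) with all arrays and -1.17 ± 0.248 (adjusted p = 0.0205) without mesenchyme 1.

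Some carriers of known role that did not pass are also given. They were picked after their values were seen, as were Slc1a2, Slc1a3, Slc5a7, Slc6a2, Slc6a6, Slc6a9, Slc7a5, Slc16a3, Slc38a1, Slc38a3 and Slc38a4. The glucose carrier Slc2a3, known from neurons and early embryos, read 6372, 4581 and 10422 in epithelium and 4826, 11442 and 9237 in mesenchyme. These arrays overlapped, and the difference was -0.25 with a 95% interval of -1.25 to 0.75. Slc2a4, the insulin-responsive glucose carrier of muscle and fat, read 147, 28.9 and 49.8 against 281, 273 and 287 (-1.92, adjusted p = 0.116). Its arrays did not overlap, and it did not pass in either fit. The epithelial mean of Slc2a4 lay below the filter cut, so it passed the filter through mesenchyme and only that direction was open to it. Of the 10 SLC2 genes tested 1 passed with all arrays, and of 9 without mesenchyme 1, 2 passed. Family counts here and below stand beside 5.98% of all genes with all arrays and 14.6% without mesenchyme 1. With 4 to 11 genes tested per family, they cannot be told from those shares.

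Of the 7 sodium-coupled SLC5 carriers tested, 0 passed in limma with all arrays (2 at unadjusted p under 0.05), and 1 of 8 without mesenchyme 1. That gene was Slc5a9, a sodium-coupled carrier of mannose and glucose. It read 803, 1252 and 1076 on the epithelial arrays against 393, 98.3 and 5.52 on mesenchyme 1, 2 and 3. The layers did not overlap, but the mesenchymal arrays lay far apart from each other. The difference was 3.38 ± 0.983 (adjusted p = 0.105), and 4.42 ± 0.667 (21.3-fold, adjusted p = 0.00544) without mesenchyme 1. A second probe set above the filter gave 3.31 with all arrays.

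Slc5a3, the sodium-coupled carrier of myo-inositol and the brightest SLC5 probe set, was close between layers. It read 11835, 15752 and 11719 in epithelium and 11574, 12062 and 13654 in mesenchyme. Its difference of 0.07 had a 95% interval of -0.41 to 0.54, so a difference of 1 log2 unit lies outside it. Slc5a7, the choline carrier of cholinergic neurons, read 178, 7.77 and 154 in epithelium and 204, 714 and 748 in mesenchyme. All mesenchymal arrays lay above the epithelial ones, and the gene did not pass (-2.43, adjusted p = 0.205, and -3.04, adjusted p = 0.0662, without mesenchyme 1). Its epithelial mean also lay below the filter cut, so only the direction toward mesenchyme was open to it.

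In SLC1, the family of glutamate and neutral amino acid carriers, 0 of 6 genes passed in limma with all arrays (1 at unadjusted p under 0.05) and 1 of 6 without mesenchyme 1. Slc1a5, a neutral amino acid exchanger known for glutamine uptake, read 1362, 1745 and 1415 on the epithelial arrays, 393 and 442 on mesenchyme 2 and 3, and 2187 on mesenchyme 1. Mesenchyme 1 was thus the highest array of all. The difference rose from 1.02 ± 0.65 (adjusted p = 0.44) to 1.87 ± 0.264 (3.65-fold, adjusted p = 0.0043) without it. Its relative Slc1a4, a carrier of alanine, serine and cysteine, read 1129, 1266 and 1159 against 2971, 1347 and 1414 (-0.58, adjusted p = 0.453). Without mesenchyme 1 its difference was -0.23, with a 95% interval of -0.79 to 0.34. The glutamate carrier Slc1a3, known from glia, read 562, 303 and 659 against 1859, 1047 and 1145, with no overlap (-1.41, adjusted p = 0.115). For the glutamate carrier Slc1a2 the probe sets opposed each other: the brightest differed by 0.23, and another past the filter read 33.4, 31.1 and 19 against 312.9, 320.9 and 242.3 (-2.82), with no overlap. That other probe set passed the filter through mesenchyme, so only this direction was open to it.

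Of the SLC6 genes, 1 of 8 tested passed with all arrays and 1 of 7 without mesenchyme 1. Slc6a15, a sodium-coupled carrier of branched-chain amino acids and proline known from neurons, was higher in mesenchyme. It read 325, 404 and 306 on the epithelial arrays against 1905, 1140.0 and 1043 on mesenchyme 1, 2 and 3. All mesenchymal arrays lay above all epithelial ones. The difference was -1.89 ± 0.366 (3.71-fold, adjusted p = 0.0284), and -1.68 ± 0.282 (adjusted p = 0.0081) without mesenchyme 1. The creatine carrier Slc6a8, the brightest SLC6 probe set tested, read 8013, 4367 and 8886 against 8344, 5434 and 6757, with a difference of 0.01 and a 95% interval of -0.79 to 0.80. The taurine carrier Slc6a6 and the glycine carrier Slc6a9 did not pass either (-0.24 and 0.17). For Slc6a2 the probe set used differed by 0.68 and did not pass (adjusted p = 0.381 in limma). Another of its probe sets, below the filter, read 7.6, 5.8 and 5.6 against 909.2, 242.1 and 256.8 (-4.17), with no overlap. The remaining ones, also below the filter, differed by -0.48 and -0.18.

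In SLC7, Slc7a14, a lysosomal member of the cationic amino acid carrier branch, was higher in mesenchyme. It read 10.2, 15.2 and 56.8 on the epithelial arrays against 535, 872 and 858 on mesenchyme 1, 2 and 3. The epithelial values lie at the bottom of the array's range, where levels have no order. The difference was -4.27 ± 0.545 (19.3-fold, adjusted p = 0.00778), and -4.52 ± 0.562 (adjusted p = 0.00265) without mesenchyme 1. A second probe set, below the filter, differed by 0.88 in the other direction.

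Slc7a10, an exchanger of small neutral amino acids including D-serine, read 470.3, 547 and 762 in epithelium, 178 and 145 on mesenchyme 2 and 3, and 1011 on mesenchyme 1. It was higher in epithelium only without mesenchyme 1 (1.79 ± 0.348, adjusted p = 0.0144), against 0.91 (adjusted p = 0.536) with all arrays. Slc7a1, the widespread arginine and lysine carrier and the brightest SLC7 probe set, read 13285, 13151 and 16686 against 24291, 10753 and 7835 (0.17, 95% interval -0.78 to 1.12). Slc7a5, the leucine carrier that pairs with the heavy chain Slc3a2, read 1702, 822 and 1949.8 against 2550.5, 1407 and 1262, and the arrays overlapped (-0.24, adjusted p = 0.801). Of 11 SLC7 genes tested, 1 passed with all arrays and 2 without mesenchyme 1.

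Slc38a5, a glutamine carrier that exchanges sodium and its substrate for protons, was higher in mesenchyme. It read 11.9, 15.9 and 27.7 on the epithelial arrays against 2325, 601 and 684 on mesenchyme 1, 2 and 3. All epithelial values were at the bottom of the range and all mesenchymal ones well above them. The difference was -4.89 ± 0.614 (29.6-fold, adjusted p = 0.00741), and -4.29 ± 0.488 (19.5-fold, adjusted p = 0.002) without mesenchyme 1. Only 1 of the 8 SLC38 genes tested passed. Slc38a2, a small neutral amino acid carrier induced by amino acid shortage, read 21243, 24401 and 13738 against 16075, 24205 and 25554 (-0.16, 95% interval -0.82 to 0.50). The glutamine carrier Slc38a1 read 10955, 9801 and 9494 against 5849, 9651 and 9256 (0.32, 95% interval -0.28 to 0.92).

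In SLC36, Slc36a1, the proton-coupled carrier of small amino acids at the lysosome and cell surface, was higher in epithelium. It read 3401, 3231 and 3295 on the epithelial arrays against 1495, 1302 and 1295 on mesenchyme 1, 2 and 3. Arrays within a layer lay close together and the layers did not overlap. The difference was 1.27 ± 0.263 (2.41-fold, adjusted p = 0.0352), and 1.37 ± 0.227 (adjusted p = 0.00777) without mesenchyme 1. Slc36a4, a carrier of the same family, read 3840.3, 6857 and 3466 against 6543, 7969 and 8183, with a difference of -0.74 that did not pass (adjusted p = 0.261).

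In SLC16, the monocarboxylate carriers, Slc16a9, linked to carnitine and creatine release, was higher in mesenchyme. It read 46.4, 117 and 32 in epithelium and 604, 674 and 415 in mesenchyme 1, 2 and 3. The layers did not overlap, and the difference was -2.95 ± 0.522 (7.74-fold, adjusted p = 0.0212), or -2.92 ± 0.57 (adjusted p = 0.0147) without mesenchyme 1. Slc16a7, a high-affinity carrier of pyruvate and lactate, read 2998, 2562 and 2574 in epithelium, 964 and 924 on mesenchyme 2 and 3, and 4684 on mesenchyme 1. It passed only without that array (1.54 ± 0.239, adjusted p = 0.00602, against 0.74, adjusted p = 0.564). Slc16a1, the most widespread lactate carrier, read 4846, 6362 and 3396 against 15016, 3295 and 4109. Mesenchyme 1 was again the highest array, and the difference was -0.32 with all arrays and 0.36 without it (adjusted p = 0.794 and 0.548). Slc16a3, the lactate exporter of glycolytic cells, was below the filter (48.2 to 212 in epithelium and 29.7 to 99.2 in mesenchyme).

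**Figure D2:**
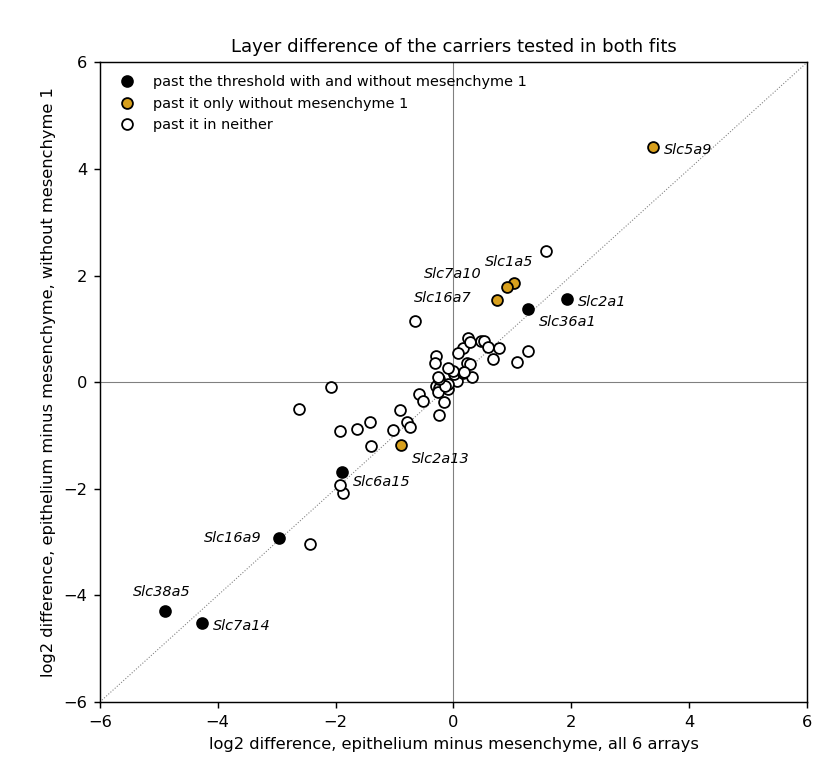
Log2 difference, epithelium minus mesenchyme, of the 60 carriers tested in both fits, with all 6 arrays (x axis) and without mesenchyme 1 (y axis); the dotted line marks equal values. Black points passed in both fits, yellow points only without mesenchyme 1; Slc38a5 and Slc7a14 lie lowest and Slc5a9 highest at the offset of 16.

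SLC2, SLC7 and SLC16 each held 1 gene higher in each layer without mesenchyme 1. In SLC2 these were Slc2a1 (1.57) and Slc2a13 (-1.17), in SLC7 Slc7a10 (1.79) and Slc7a14 (-4.52), and in SLC16 Slc16a7 (1.54) and Slc16a9 (-2.92). The other 5 families held 1 such gene each: Slc1a5, Slc5a9 and Slc36a1 higher in epithelium, and Slc6a15 and Slc38a5 in mesenchyme. Over all genes 6.41% were higher in epithelium and 8.2% in mesenchyme, and so few genes per family do not set families apart. The carriers that did not pass ranged from -2.61 to 3.38 with all arrays (57 genes) and from -3.04 to 2.45 without mesenchyme 1 (50 genes). For 10 genes the 95% interval without mesenchyme 1 lay within 1 log2 unit of 0 on both sides: Slc1a4, Slc5a3, Slc6a8, Slc6a9, Slc6a17, Slc7a6, Slc38a1, Slc38a2, Slc38a4 and Slc38a6. For the others a larger difference was not detectable or not bounded with these arrays.

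The calls of single carriers rested on few arrays. With all arrays, leaving out epithelium 1 left 1 carrier past the threshold (Slc7a14), mesenchyme 2 left 1 (Slc38a5), epithelium 5 and mesenchyme 3 left 2 each and epithelium 2 left 4. All genes past it fell as well, from 820 to between 143 (without epithelium 1) and 542 (without epithelium 2). Adjusted p where the call was lost reached 0.152 for Slc2a1, 0.143 for Slc6a15, 0.179 for Slc36a1 and 0.112 for Slc16a9, while it reached 0.0505 for Slc38a5 (without epithelium 1) and 0.0532 for Slc7a14 (without mesenchyme 2). Starting from the 5 arrays, leaving out epithelium 2 raised the count from 11 to 22. Over all genes the count rose likewise, from 1983 of 13576 to 3868 of 13564. With a single mesenchymal array left, the lone array was assumed to vary like the others. Slc7a14 and Slc38a5 then fell below the filter and were not tested. Of the carriers called on the 5 arrays and still tested, all but Slc5a9 lost their calls. Such fits hold no spread within mesenchyme. Slc5a9 differed by 3.21 with mesenchyme 2 alone and 5.54 with mesenchyme 3 alone. Median centring also ended the call of Slc36a1 (adjusted p = 0.122) and gave 1 carrier higher in epithelium and 4 in mesenchyme. Slc2a1 missed the threshold without a variance trend (adjusted p = 0.0507) and Slc16a9 when its probe sets were averaged (adjusted p = 0.0533) or when its probe set that is brightest without mesenchyme 1 was used (-2.40, adjusted p = 0.158); its call was lost in 7 of 17 settings. Without mesenchyme 1, Slc16a9 lost its call on unique probe sets (adjusted p = 0.0641) and without epithelium 1 (0.0572). Slc2a1 narrowly lost its call there without epithelium 1 (adjusted p = 0.0506). Slc2a13 lost its call there with median centring (adjusted p = 0.0632) and without epithelium 1 (0.0772), and Slc36a1 with median centring (0.0642). Fold changes of genes near the bottom of the range in 1 layer moved with the offset: Slc38a5 was at -5.76 with an offset of 1 and -3.68 with 64, Slc7a14 at -5.10 and -3.17, Slc16a9 at -3.29 and -2.31, and Slc5a9 without mesenchyme 1 at 5.41 and 3.36.

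Endothelial, neuronal and smooth muscle markers moved with the layers too, and the macrophage and erythroid lists did so less clearly. The 6 endothelial markers (Pecam1, Cdh5, Kdr, Tek, Emcn and Cldn5) did not overlap between the layers and summed to 620 to 1874 on the epithelial arrays and 13898 to 19044 on the mesenchymal ones. Of 4 neuronal and neural crest markers tested, Stmn2, Prph and Snap25 passed as higher in mesenchyme and Sox10 did not; the list summed to 335 to 461 in epithelium and 20765 to 24278 in mesenchyme. The 6 macrophage markers summed to 2676 to 6325 and 8058 to 45811, and the 5 smooth muscle markers to 4824 to 10730 and 23039 to 51792. Of the macrophage markers, 0 passed in limma with all arrays (3 at unadjusted p under 0.05) and 2 without mesenchyme 1. The highest macrophage sum, 45811, was that of mesenchyme 1, against 11646 and 8058 on mesenchyme 2 and 3. The 5 erythroid markers summed to 11446 to 50463 in epithelium, 58055 and 58058 on mesenchyme 2 and 3, and 7992 on mesenchyme 1, with Hbb-y making up most of each epithelial sum. No marker was listed at exactly 0. Slc6a15, Slc7a14, Slc16a9 and Slc38a5 were high on the same arrays as the endothelial, neuronal, macrophage and smooth muscle lists, and the part of those cells in the result was not tested.

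On mesenchyme 1, many carriers read far above every other array. Of the 88 carriers, 25 exceeded the mean of the other mesenchymal arrays by over 2 log2 units (28.4%, beside 9.37% of all 18193 genes) and 2 lay over 2 units below it (Slc7a6 and Slc16a13). On that array 16 carriers were over 4-fold above the highest other array (18.2%, beside 5.3% of all genes). This is a description of 1 array, with no test. The median excess was 0.69 over the carriers and -0.16 over all genes, and by family it was 1.76 in SLC5, 1.14 in SLC16 and 1.12 in SLC6, against 0.18 in SLC2 and -0.05 in SLC36. On the probe sets used, 0 of the 9 SLC38 genes exceeded 2 units, but other probe sets did: 1 of Slc38a3, below the filter, read 1125 on mesenchyme 1 and at most 14.2 elsewhere, and 1 of Slc38a4 read 15880 against 2255 and 2127 on mesenchyme 2 and 3.

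**Figure D3:**
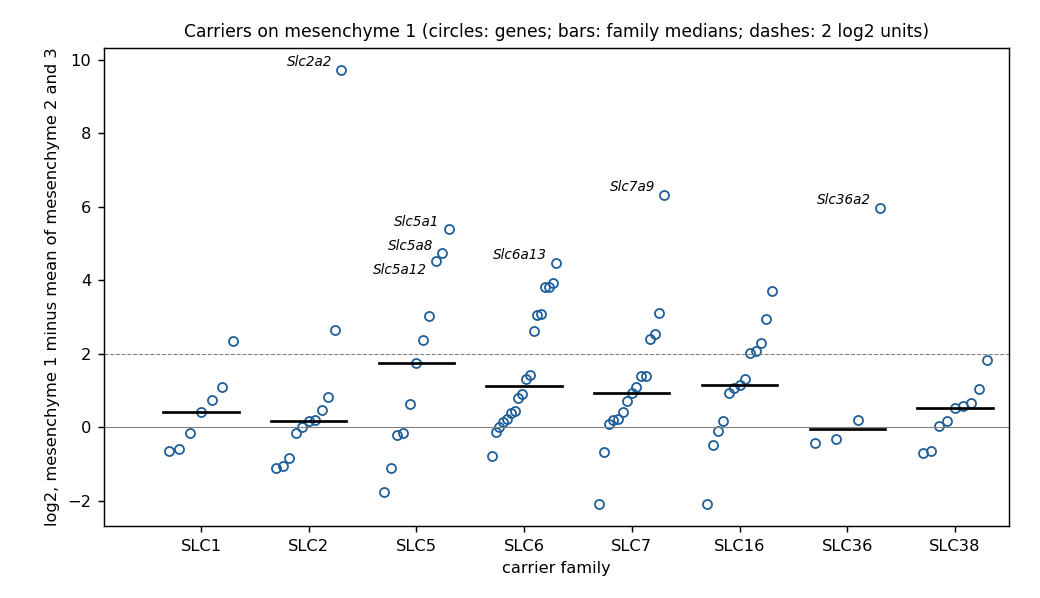
Log2 signal on mesenchyme 1 minus the mean of mesenchyme 2 and 3 for the 88 carriers (circles) by family, with family medians as bars and a dashed line at 2 units. Slc2a2, Slc7a9, Slc36a2 and Slc5a1 lie highest; each gene is drawn from its brightest probe set only, and other probe sets of Slc38a3 and Slc38a4 read higher on mesenchyme 1.

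The 8 with the largest excess are carriers known from absorbing, secreting or neural tissue. Slc2a2, the glucose carrier of liver, pancreatic islets, intestine and kidney, read 24313 on that array and between 12.1 and 201 elsewhere. Slc7a9, the light chain that carries cystine and dibasic amino acids in kidney and intestine, read 10995 and at most 141 elsewhere, and its heavy chain Slc3a1 read 5169 and at most 153. Slc36a2, an imino and small amino acid carrier of kidney, read 9413 and at most 173. Those 3 carriers and Slc5a1 share this profile of 1 bright array. Slc5a1, the intestinal sodium-glucose carrier, read 3157 and at most 263, and Slc5a8 and Slc5a12, sodium-coupled monocarboxylate carriers, read 914 and 416 and at most 66.5 and 7.01 elsewhere. Slc6a13, a GABA carrier, read 616 and at most 119, and the serotonin carrier Slc6a4 446 and at most 21.5.

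Organ markers were high on the same array. The 6 liver markers (Alb, Ttr, Afp, Apoa1, Apoa2 and Fgb) summed to 241726 on mesenchyme 1 and at most 1118 elsewhere, the 4 pancreas markers to 65032 and at most 846, and the 4 intestinal markers (Fabp2, Vil1, Cdx2 and Fabp1) to 74739 and at most 144. The 4 kidney markers (Slc12a1, Umod, Nphs1 and Slc34a1) summed to 4439 and at most 512, with Nphs1 no higher there than on the epithelial arrays (27.7). Heart markers summed to 16724 and at most 412, lung markers to 27685 and at most 955, and epidermal markers to 127414 and at most 29355. Only 1 of 3 lung, 2 of 4 kidney and 2 of 3 epidermal markers read over 4-fold above the highest other array. All liver, pancreas, intestinal and heart markers did. The part of these organs' transcripts in the carrier values of mesenchyme 1 was not tested. Slc2a2, Slc6a19 and Slc16a12 passed the filter only with mesenchyme 1 included, and of the 25 carriers below the filter with all arrays 7 were over 4-fold above the highest other array on mesenchyme 1. Outside mesenchyme 1 no carrier below the filter read above 283.

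Lists of genes that work with the carriers are read beside the shares of all genes past the threshold, 5.98% with all arrays and 14.6% without mesenchyme 1. Of 8 partner genes tested (heavy chains, ancillary proteins and scaffolds), 0 passed in limma with all arrays (2 at unadjusted p under 0.05, and 3 past the threshold with array quality weights), and 2 of 6 (33.3%) passed without mesenchyme 1. With those weights 5109 of all 13717 genes passed too. Slc9a3r1, a scaffold of apical membrane carriers, read 16184, 12423 and 20255 in epithelium, 2519 and 1285 on mesenchyme 2 and 3, and 17537 on mesenchyme 1. Its difference was 3.16 ± 0.35 (adjusted p = 0.00188) without mesenchyme 1 and 2.05 (adjusted p = 0.256) with it. Emb, embigin, an ancillary protein of monocarboxylate carriers, differed by 1.11 (adjusted p = 0.0284) without mesenchyme 1 and 0.85 (adjusted p = 0.199) with it. Slc3a2, the heavy chain of several SLC7 carriers, read 2389 to 3055 in epithelium and 2406 to 4807 in mesenchyme (-0.12).

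Of 22 glycolysis genes tested, 1 (4.55%) passed with all arrays and 7 of 21 (33.3%) without mesenchyme 1, 5 higher in epithelium and 2 in mesenchyme. The median difference of the list was 0.14 and 0.23. Eno2, the neuronal enolase, passed in both fits, read 173, 347 and 103 in epithelium against 2395, 1249 and 978, and was higher in mesenchyme (-2.84 ± 0.542, adjusted p = 0.0268). Hk1, a hexokinase, was also higher in mesenchyme without mesenchyme 1 (-1.20, adjusted p = 0.0339), whereas the aldolase Aldoc (1.58, adjusted p = 0.0474) and the phosphofructokinase Pfkl (1.25, adjusted p = 0.0379) were higher in epithelium, as were Hk2, Pkm and Ldha. On unique probe sets alone, 0 of the list passed in limma with all arrays (2 at unadjusted p under 0.05) and 2 without mesenchyme 1.

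Of 27 genes of amino acid synthesis and use, 1 (3.7%) passed with all arrays and 2 (7.41%) without mesenchyme 1 (median 0.01 and 0.11). Bcat1, the cytosolic branched-chain aminotransferase, was higher in mesenchyme and its arrays were far apart: 137, 185 and 169 against 6700.1, 4776 and 5902 (-5.01 ± 0.312, adjusted p = 0.0021). Its other probe set, of the unique kind, gave -0.81 (adjusted p = 0.293). Arg1, arginase, read 3129, 4036 and 2873 in epithelium, 153 and 131 on mesenchyme 2 and 3, and 5737 on mesenchyme 1. It was higher in epithelium only without mesenchyme 1 (4.50 ± 0.276, adjusted p = 0.000633, against 2.67, adjusted p = 0.324).

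The sodium pump genes, which maintain the gradient that sodium-coupled carriers use, had 2 of 8 members (25%) past the threshold, and 4 of 8 (50%) without mesenchyme 1. Fxyd3, a regulatory subunit of epithelia, was higher in epithelium: it read 7887, 4211 and 9105 against 1415, 427 and 172 (3.77 ± 0.728, adjusted p = 0.0282). Fxyd6, a relative, was higher in mesenchyme, at 852, 992 and 1150.3 against 2495, 4123 and 4909 (-1.88 ± 0.351, adjusted p = 0.025). Without mesenchyme 1, Atp1b1, a beta subunit of the pump, and Fxyd4 were also higher in epithelium (1.49, adjusted p = 0.0229, and 1.29, adjusted p = 0.0488). With all arrays neither passed (adjusted p = 0.324 and 0.108), and Atp1b1 read 30952 on mesenchyme 1 against 15644 and 7067 on mesenchyme 2 and 3.

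**Figure D4:**
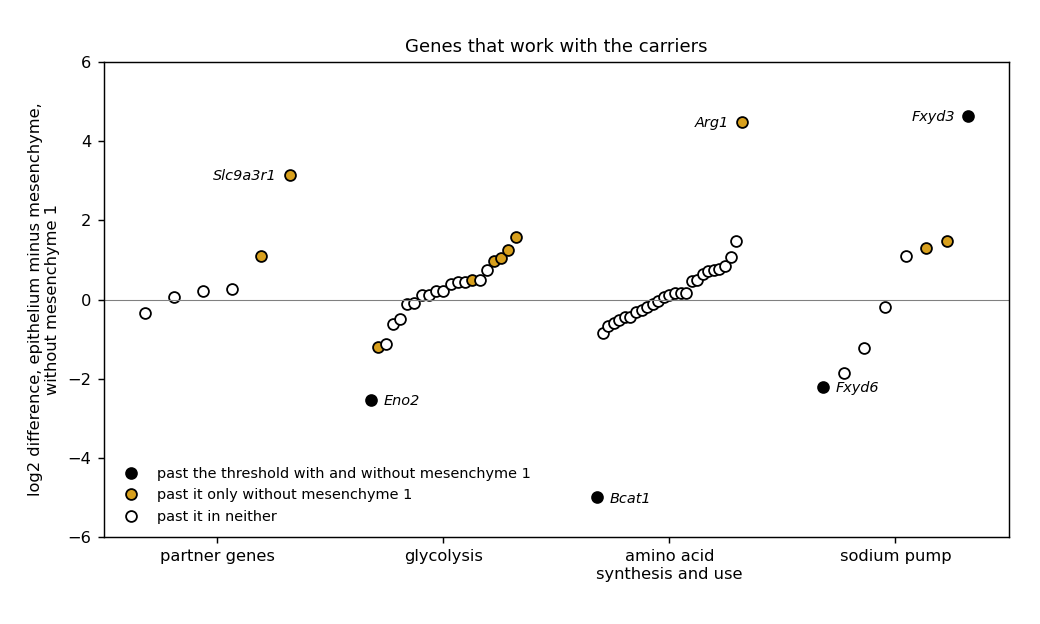
Log2 difference, epithelium minus mesenchyme, without mesenchyme 1, for the tested genes of 4 lists that work with the carriers; each circle is 1 gene, filled black where it passed with and without mesenchyme 1 and yellow where only without it. Bcat1 lies lowest at -5.01, and Fxyd3 and Arg1 highest.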

How the data were processed

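Each of the 6 arrays gave 1 deposited intensity per probe set, scaled per array by the authors (the 2% trimmed mean is 1500). GCOS is named in the submitters' processing notes and its version is not given in the sources used here. No detection calls were used. Probe sets with exactly 1 gene symbol were kept (34945 of 45101; 932 name several genes and 9160 none). Values were taken as log2(signal + 16), quantile-normalized, reduced to the brightest probe set per gene, filtered at the 40th percentile of mean signal, and fitted with limma (lmFit, eBayes with trend) with Benjamini-Hochberg adjustment over all genes. Printed signals are back-transformed values of the 6-array normalization. The carriers, lists and tests were chosen with earlier results of these data known. Genes named are those past the threshold in either fit, the brightest tested of each family, the 8 highest on mesenchyme 1, and some carriers of known role picked after their values were seen. On simulated data the fit recovered 38% of genes changed by 2 log2 units with all arrays and 76% without mesenchyme 1. No label says that shared replicate numbers (1 and 2) pair the samples, and they were treated as unpaired. Deviations from the layer means correlated at -0.045 and -0.021 for these numbers. With so few arrays, and mesenchyme 1 apart, these values cannot settle whether the samples are paired. Of the 88 carriers, 48 have several probe sets; of 27 with several past the filter, 9 had probe sets of opposite sign: Slc1a2, Slc1a4, Slc2a3, Slc5a1, Slc6a17, Slc7a1, Slc38a2, Slc38a9 and Slc38a10. Promoters are RefSeq's (GRCm38.p6).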

Additional observations from a re-analysis of the deposited data

How the results depend on the processing

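Counts of genes past the threshold moved most with array quality weights, whose estimate stopped early: 29 carriers with all arrays and 34 without mesenchyme 1, 3 partner genes, 12 and 13 glycolysis genes, 14 and 14 amino acid genes and 7 sodium pump genes. The rise was array-wide: with these weights 5109 of all 13717 genes passed with all arrays and 5892 of 13576 without mesenchyme 1. With the replicate number as a block, which leaves 1 residual degree of freedom, limma called 0 carriers (10 at unadjusted p under 0.05), 0 glycolysis, 0 amino acid and 0 sodium pump genes, and 0 of all genes (1460 unadjusted); without mesenchyme 1 no such fit could be made. A filter at the 60th percentile left 3 and 7 carriers, beside 727 of 10507 and 1646 of 10396 genes. It removed Slc7a14, Slc16a9 and Slc38a5 before testing, and without mesenchyme 1 also Slc5a9. Glycolysis gave 2 and 3 without normalization, 3 with the mean of probe sets, 0 and 2 on unique probe sets, and without mesenchyme 1 it gave 4 with no filter and 4 with no variance trend. Median centring gave 1 sodium pump gene and, without mesenchyme 1, 1 partner gene, as did no variance trend; unique probe sets gave 0 amino acid genes (3 unadjusted in limma). Median centring changed the split of carriers from 2 and 4 to 1 and 4 (epithelium, mesenchyme), and from 6 and 5 to 5 and 6 without mesenchyme 1, where Slc2a13 and Slc36a1 dropped out and other carriers came in; the all-gene median was 0.12 with quantile normalization, 0.06 with none and 0.23 with median centring.

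Leaving out each array in turn gave 1 to 11 carriers (1 to 22 from the 5 arrays), 0 to 2 partner genes (1 to 2), 0 to 7 glycolysis genes (0 to 10), 1 to 2 amino acid genes (2 to 10) and 0 to 4 sodium pump genes (2 to 3). From the 5 arrays, these ranges include fits with a single mesenchymal array. In those fits Slc7a14 and Slc38a5 fell below the filter and were not tested, and the other calls of the 5 arrays were lost, Slc5a9 apart. The differences that changed sign were all of genes not past the threshold. With all arrays, Slc38a2 was 0.11 with median centring, 0.0622 with the mean of probe sets and 0.21 with the block, and from -0.37 (without mesenchyme 1) to 0.0812 (without epithelium 5) with an array left out. Slc1a4 was 0.15 on unique probe sets. Slc5a3 was -0.18 with weights and -0.0743 without epithelium 2, its lowest; the highest was 0.14. Slc16a1 was 0.14 with weights, and from -0.74 to 0.36 with an array left out. Slc6a8 was -0.19 with the block, and from -0.18 to 0.32 with an array left out. Slc7a1 was -0.29 with the block, and from -0.18 to 0.63 with an array left out. From the 5 arrays, Slc38a2 was 0.0421 with the mean of probe sets and Slc1a4 0.0778 on unique probe sets. Slc5a3 was -0.10 with weights and -0.12 to 0.11 with another array left out, and Slc6a8 -0.0343 to 0.47. The cause of these changes was not tested. Signals near the bottom of the range limit fold changes, and no detection call marks them.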
